A study of Mus musculus with 9 samples.

Results

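The erythroid and globin genes of the mouse were examined in RNA-seq libraries of CD4+ T cells. A total of 9 genes were listed by name and 8 of them were found among the 55487 genes of the expression table. The 8 were the adult alpha globins Hba-a1 and Hba-a2, the adult beta globins Hbb-bs and Hbb-bt, the heme synthesis gene Alas2, the red cell membrane gene Slc4a1, the receptor gene Epor and the transcription factor gene Klf1. Their transcripts were highest in cells kept in medium, lowest in cells stimulated with anti-CD3 and anti-CD28 Abs, and intermediate in cells stimulated in the presence of TRAIL. The 4 globins together reached 2303 ± 233 TPM (mean ± SD, n = 3) in medium, 30.2 ± 8.15 TPM in stimulated cells and 630.4 ± 25.3 TPM in TRAIL-treated stimulated cells. TPM gives the share of a library's transcripts that a gene makes up, corrected for transcript length and scaled so that all genes sum to 1000000.

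All cells came from the spleens of wild type C57BL/6 mice, which the study's methods describe as female and 6 to 7 weeks old, and CD4+ T cells were isolated with a kit for negative selection, which removes other cells by their surface markers and leaves what it does not bind. There were 3 groups of 3 libraries. The medium group was cultured in RPMI-1640 with fetal calf serum, penicillin and streptomycin only, and its culture time was not given in the sources used here. The stimulated group received anti-CD3 Abs at 3 µg/ml and anti-CD28 Abs at 2 µg/ml, which engage the T cell receptor complex and a costimulatory receptor, for 24 h. The TRAIL-treated group received the same Abs together with TRAIL, a member of the tumor necrosis factor ligands that binds TRAIL-R, at 10 µg/ml for 24 h. No group received TRAIL without Abs. The labels do not say whether the replicates were separate animals, so p-values measure the spread between these libraries, which may be technical.

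Red blood cells arise in the bone marrow and, in mice, also in the spleen. Erythropoietin (EPO) binds its receptor on erythroid progenitors, the factor KLF1 binds CACCC letters in globin and other erythroid promoters, and maturing cells fill with hemoglobin, a tetramer of alpha and beta globin chains that each carry heme. Reticulocytes and young red cells retain globin mRNA after the nucleus is lost. In bulk RNA, fewer cells of a type and less RNA per cell cannot be told apart.

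The globin genes form pairs with nearly identical coding sequences, which are shown here because many reads from them fit both copies. Both alpha genes lie on chromosome 11 of GRCm38, Hba-a1 (ENSMUSG00000069919) at chr11:32283511-32284465 and Hba-a2 (ENSMUSG00000069917) at chr11:32296489-32297298, both on the plus strand. In the GENCODE M21 transcripts their 429 coding bases differed at 1 position, C381T from Hba-a1 to Hba-a2, counted from the first base of the start codon, so that 231 of 280 coding windows of 150 bases (82.5%), the length of 1 read, were shared. The untranslated parts of the transcripts and the mates of paired reads were not compared. Coding bases 352 to 411 are printed 5′ to 3′ with the differing base in capitals.
Hba-a1: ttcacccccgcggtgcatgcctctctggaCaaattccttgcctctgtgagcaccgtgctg
Hba-a2: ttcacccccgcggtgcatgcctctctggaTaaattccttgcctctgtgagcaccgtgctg

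The beta genes lie on the minus strand of chromosome 7, Hbb-bs (ENSMUSG00000052305) at chr7:103826534-103828096 and Hbb-bt (ENSMUSG00000073940) at chr7:103812524-103813996. Their 444 coding bases also differed at 1 position, C417T from Hbb-bs to Hbb-bt, and 267 of 295 coding windows (90.5%) were shared. The values of single paralogs are therefore uncertain, and the sum of each pair is given beside them. Coding bases 385 to 444 are printed in the same way, with the differing base in capitals.
Hbb-bs: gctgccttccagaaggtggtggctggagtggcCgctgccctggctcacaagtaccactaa
Hbb-bt: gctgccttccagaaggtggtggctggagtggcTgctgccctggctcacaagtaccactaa

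The promoters of the members were also compared. RefSeq promoters (GRCm38.p6) were found for 7 of the 8 genes, all but Slc4a1. In the 120 bases before the RefSeq start, CACCC was found on either strand in 6 of the 7 promoters, against 31.7% of 32851 promoters of the same length. CCAAT was found in 5, against 21.3%, and TATAA in 4, the globins, against 11.8%. GATAA, the core of the sites that GATA factors bind, was found in Alas2, Epor and Klf1, against 10.5% of promoters. ATAAA was found in 2 of the 7 promoters against 20.2%, and it can overlap both TATAA and GATAA in its other orientation. A match describes the letters only. The parts of these windows that lie outside the annotated gene are printed 5′ to 3′ on the gene's strand, for 1 globin of each chain and for the 3 promoters with GATAA, with every motif match in capitals.
Hba-a2, chr11:32296372-32296488, plus strand: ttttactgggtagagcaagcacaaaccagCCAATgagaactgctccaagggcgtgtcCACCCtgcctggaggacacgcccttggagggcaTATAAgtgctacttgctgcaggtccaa
Hbb-bt, chr7:103813997-103814043, minus strand: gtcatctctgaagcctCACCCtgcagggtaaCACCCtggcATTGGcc
Alas2, chrX:150547297-150547374, plus strand: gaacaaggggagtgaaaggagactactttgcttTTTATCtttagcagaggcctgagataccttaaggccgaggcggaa
Epor, chr9:21963577-21963696, minus strand: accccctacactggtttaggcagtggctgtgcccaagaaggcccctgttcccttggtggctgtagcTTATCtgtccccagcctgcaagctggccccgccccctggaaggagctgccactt
Klf1, chr8:84901862-84901927, plus strand: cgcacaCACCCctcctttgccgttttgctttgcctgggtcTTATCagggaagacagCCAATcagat

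Read depth is unknown, since every library has the same TPM total, and no counting error can be given. The number of genes that reached 1 TPM was 14866 to 14909 in a medium library, 13691 to 14015 in a stimulated one and 14503 to 14889 in a TRAIL-treated one. The lowest common value is 0.0001 TPM, at or below which 57.7 to 60.2% of genes in a library are listed. All 10 T cell markers examined (Cd3d, Cd3e, Cd3g, Cd4, Trac, Trbc2, Cd5, Cd2, Lck and Cd28) were present, and their summed level was 4645 to 4859 TPM in medium, 4226 to 4454 TPM with stimulation and 4624 to 5050 TPM with TRAIL.

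Stimulated cells were compared with medium. Since the culture time of the medium group is not given, stimulation and time in culture cannot be told apart in comparisons with medium, and "with stimulation" names the comparison only. All 8 erythroid and globin genes fell, where 19.5% of the 15536 genes tested were called lower. Calls came from limma on log2(TPM + 1), a scale that understates the change of low genes, and needed a log2 fold change of 1 or more in either direction with an adjusted p under 0.05. All 8 genes passed the filter on low values, and without the filter the number called was the same in each of the 3 comparisons. The median log2 fold change was -5.88 over the 7 genes other than Slc4a1, which is listed at 0.0001 TPM in all stimulated libraries, and -0.15 over all genes tested. In all 8 genes the stimulated libraries lay below the medium libraries without overlap, as they did in 42.6% of genes tested.

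TRAIL-treated stimulated cells were compared with stimulated cells to ask how the presence of TRAIL altered the response. Of the 8 genes, 7 rose, where 16.6% of genes tested were called higher. The median log2 fold change was 4.0 over the same 7 genes and 0.011 over all genes. The exception was Klf1, whose log2 fold change of 0.87 stayed under the fold threshold. All 8 genes were higher without overlap of libraries, as were 35.5% of genes tested. Against medium, the TRAIL-treated group was lower in 7 of 8 genes, where 2.13% of genes tested were called lower, with a median of -1.86 over the 8 genes against -0.18 over all genes. Here the exception was Epor at -0.97, and again all 8 genes did not overlap, as in 38.2% of genes tested. These 3 comparisons share their groups, so they are not independent of each other.

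**Figure D1:**
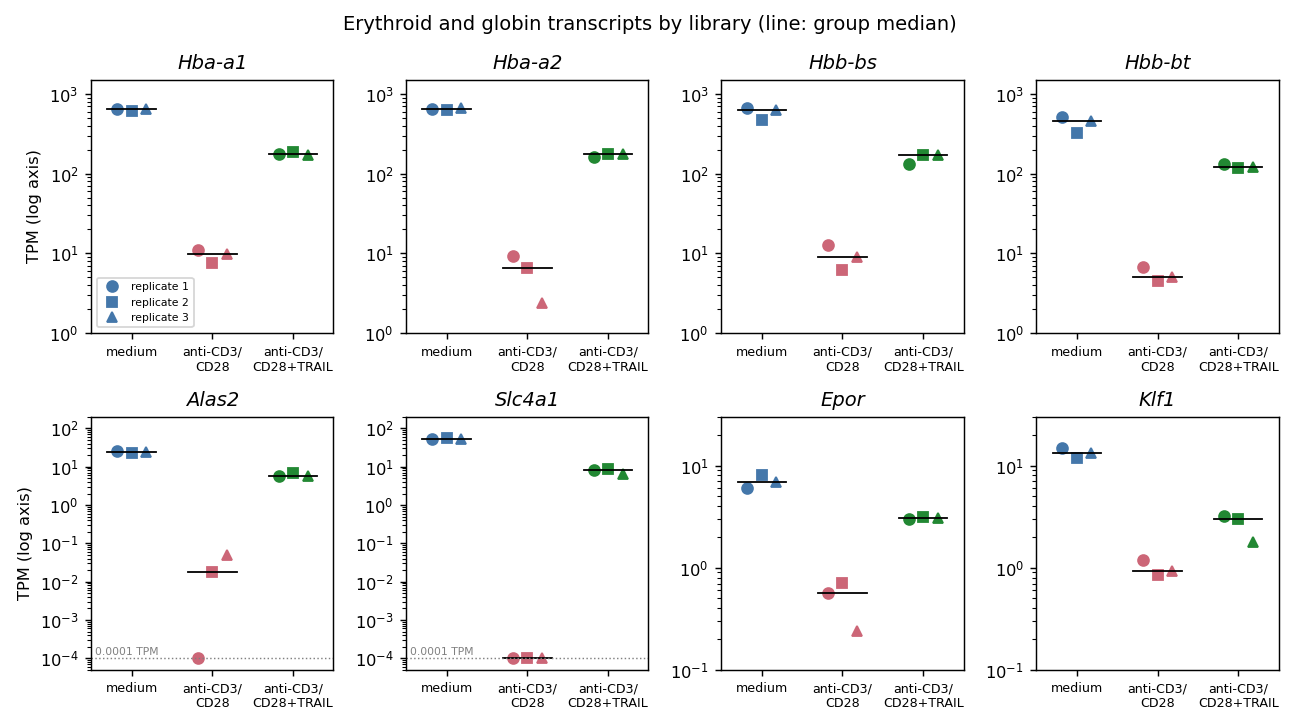
Level of each of the 8 genes in each library, in TPM on a log axis, by group, with the marker shape giving the replicate number and the line the group median. In all 8 panels the medium libraries are highest, the stimulated libraries lowest and the TRAIL-treated libraries between them. Slc4a1 is listed at 0.0001 TPM in all 3 stimulated libraries.

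The alpha and beta globins, which build hemoglobin, were the most abundant of the 8 genes in every group. Hba-a1 measured 649, 612 and 642 TPM in medium, 10.9, 7.64 and 9.87 TPM in stimulated, and 177, 184 and 171 TPM in TRAIL-treated libraries, in the order of replicates 1 to 3. The 3 groups were far apart beside their spread, and stimulated cells held 1.49% of the medium level and TRAIL-treated cells 28.0%. The log2 fold change was -5.93 (SE 0.12, limma adjusted p = 1.9e-10) for stimulated against medium. It was 4.10 (adjusted p = 1.7e-09) for TRAIL-treated against stimulated cells and -1.83 (adjusted p = 4.6e-06) for TRAIL-treated against medium. Hba-a2 measured 645, 629.9 and 671 TPM in medium, 9.14, 6.53 and 2.37 TPM in stimulated, and 162, 176 and 174 TPM in TRAIL-treated libraries. Stimulated replicate 3 was the lowest library of Hba-a2, while Hba-a1 was not low in it. Its log2 fold changes were -6.68 (SE 0.31, limma adjusted p = 3.2e-08), 4.76 (adjusted p = 4.2e-07) and -1.92 (adjusted p = 1.7e-03) in the same order of comparisons.

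Summed over the pair, alpha globin stood at 1294, 1242 and 1313 TPM in medium, 20.1, 14.2 and 12.2 TPM in stimulated, and 339, 360.4 and 345 TPM in TRAIL-treated libraries. The sum depends less on how reads were divided between the copies than each copy does, though TPM also divides by transcript length, which differs between them. It fell by 6.31 on the log2 scale with stimulation (SE 0.15, limma adjusted p = 4.2e-10). In TRAIL-treated cells it was 4.43 above stimulated cells on that scale (adjusted p = 4.5e-09), and it fell by 1.88 against medium (adjusted p = 1.9e-05).

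The beta globins had the same order of groups with a wider spread in medium. Hbb-bs measured 673, 469.7 and 627 TPM in medium, 12.8, 6.19 and 8.90 TPM in stimulated, and 132, 172 and 173 TPM in TRAIL-treated libraries. Hbb-bt, the other adult beta chain, measured 509.6, 326 and 453 TPM in medium, 6.73, 4.42 and 5.09 TPM in stimulated, and 131, 117 and 122 TPM in TRAIL-treated libraries. Medium replicate 2 was the lowest medium library for both beta genes, while the alpha globins were not low in it to that extent. For Hbb-bs the log2 fold changes were -5.88 (SE 0.23, limma adjusted p = 8.5e-09) with stimulation, 4.0 (adjusted p = 1.5e-07) for TRAIL-treated against stimulated cells, and -1.88 (adjusted p = 3.0e-04) against medium. For Hbb-bt they were -6.06 (SE 0.17, limma adjusted p = 1.5e-09), 4.29 (adjusted p = 1.5e-08) and -1.77 (adjusted p = 8.3e-05). The summed beta globins, at 1182, 796 and 1080.4 TPM in medium, 19.5, 10.6 and 14.0 TPM in stimulated, and 262, 289 and 295 TPM in TRAIL-treated libraries, gave log2 fold changes of -6.04 (SE 0.20, limma adjusted p = 3.4e-09), 4.21 (adjusted p = 4.6e-08) and -1.83 (adjusted p = 1.8e-04).

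All 4 globins together made up 0.204 to 0.248% of all TPM in a medium library, 0.00248 to 0.00396% with stimulation and 0.0602 to 0.0649% with stimulation and TRAIL.

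Alas2 and Slc4a1 are made in cells that build hemoglobin and the red cell membrane, and in stimulated cells both were at or near the lowest listed value. Alas2 (ENSMUSG00000025270, chrX:150547375-150570638, plus strand) encodes the erythroid form of the first enzyme of heme synthesis. It measured 25.9, 22.7 and 24.6 TPM in medium and 5.89, 6.92 and 5.69 TPM in TRAIL-treated libraries, while the stimulated libraries were listed at 0.0001, 0.0181 and 0.0487 TPM. Every stimulated library was far below every other library. The log2 fold change on log2(TPM + 1) was -4.63 (SE 0.12, limma adjusted p = 6.3e-10) for stimulated against medium and 2.81 (adjusted p = 1.6e-08) for TRAIL-treated against stimulated cells. With stimulated cells near the lowest value, the size of both depends on the pseudocount, and over the alternatives they ranged from -7.66 to -2.55 and from 1.15 to 5.69. TRAIL-treated cells held 25.3% of the medium level, with a log2 fold change of -1.83 (limma adjusted p = 4.5e-06).

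Slc4a1 (ENSMUSG00000006574, chr11:102348824-102366203, minus strand) encodes band 3, the anion exchanger of the red cell membrane. It measured 51.8, 56.2 and 51.5 TPM in medium and 8.42, 8.83 and 6.60 TPM in TRAIL-treated libraries, and it was listed at 0.0001 TPM in all 3 stimulated libraries. No fold change is therefore given against stimulated cells, where the limma adjusted p was 2.4e-10 for medium and 1.1e-08 for TRAIL-treated cells. TRAIL-treated cells held 14.95% of the medium level, with a log2 fold change of -2.61 (SE 0.12, limma adjusted p = 6.2e-07), the most negative of the 8 genes in this comparison.

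Epor and Klf1 act earlier in the lineage and were the least abundant of the 8 genes in medium. Epor (ENSMUSG00000006235, chr9:21958897-21963506, minus strand) encodes the EPO receptor. It measured 5.97, 8.08 and 6.98 TPM in medium, 0.567, 0.716 and 0.238 TPM in stimulated, and 3.03, 3.15 and 3.07 TPM in TRAIL-treated libraries. Stimulated cells held 7.23% of the medium level and TRAIL-treated cells 43.9%, which was the highest percentage of the 8 genes. The log2 fold changes were -2.42 (SE 0.15, limma adjusted p = 3.0e-07) with stimulation and 1.45 (adjusted p = 1.4e-05) for TRAIL-treated against stimulated cells. Against medium the value in TRAIL-treated cells was -0.97 (limma adjusted p = 1.5e-03), under the fold threshold.

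Klf1 (ENSMUSG00000054191, chr8:84901928-84905295, plus strand) encodes a zinc finger factor required for adult beta globin expression. It measured 15.03, 11.9 and 13.3 TPM in medium, 1.19, 0.843 and 0.919 TPM in stimulated, and 3.24, 2.98 and 1.80 TPM in TRAIL-treated libraries. TRAIL-treated replicate 3 was the lowest of its group. Stimulated cells held 7.34% and TRAIL-treated cells 20.0% of the medium level. The log2 fold changes were -2.86 (SE 0.17, limma adjusted p = 2.0e-07) with stimulation, 0.87 (adjusted p = 1.2e-03) for TRAIL-treated against stimulated cells, and -1.99 (adjusted p = 3.6e-05) against medium.

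**Figure D2:**
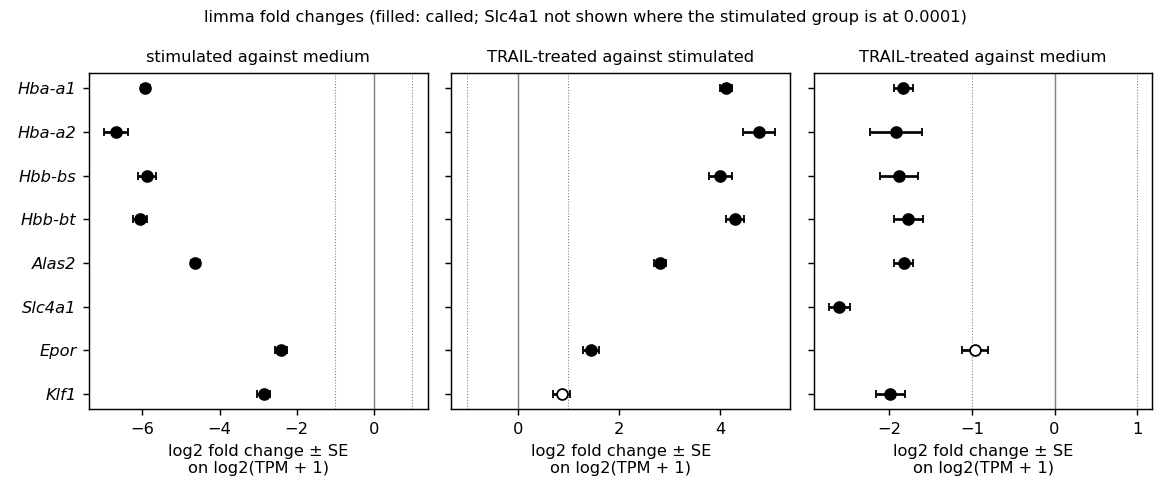
Log2 fold change with its SE, on log2(TPM + 1), for each of the 8 genes in the 3 comparisons, filled where the gene was called. Klf1 at 0.87 and Epor at -0.97 are the open points, and Slc4a1 is left out where the stimulated group is listed at 0.0001 TPM.

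The balance among the 8 genes was then examined within each library, since a ratio of 2 genes does not depend on how a library was scaled. The ratio of summed alpha to summed beta globin was 1.09, 1.56 and 1.22 in medium, 1.03, 1.34 and 0.874 in stimulated, and 1.29, 1.25 and 1.17 in TRAIL-treated libraries. The groups overlapped, and an exact permutation test of the F statistic over the 9 libraries gave p = 0.446. Between pairs of groups the log2 ratio differed by -0.26 (stimulated minus medium, exact permutation p = 0.4), 0.22 (TRAIL-treated minus stimulated, p = 0.4) and -0.046 (TRAIL-treated minus medium, p = 0.9), all two-sided. No change in chain balance was detectable with 3 libraries a group.

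The ratio of Hba-a1 to Hba-a2 was 1.01, 0.972 and 0.956 in medium, 1.20, 1.17 and 4.17 in stimulated, and 1.09, 1.05 and 0.984 in TRAIL-treated libraries. The value of 4.17 was that of stimulated replicate 3, in which Hba-a2 was low. The exact permutation test over the groups gave p = 0.00714 (adjusted p = 0.0119 over the 5 ratios tested this way; the smallest p possible is 0.00357). How reads were divided between these paralogs was not tested. The ratio of Hbb-bt to Hbb-bs was 0.757, 0.695 and 0.723 in medium, 0.527, 0.715 and 0.572 in stimulated, and 0.993, 0.682 and 0.707 in TRAIL-treated libraries, with overlap of the groups (exact permutation p = 0.168).

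Set against globin, the other erythroid genes did not all keep their proportion. These ratios were added after the data were seen. Per 1000 TPM of summed globin, Alas2 stood at 10.4, 11.1 and 10.3 TPM in medium and at 9.79, 10.7 and 8.88 TPM in TRAIL-treated libraries, which overlapped (log2 difference -0.12, exact permutation p = 0.3). In stimulated libraries, left out of this test, Alas2 was listed at 0.0001 TPM in replicate 1 and stood at 0.730 and 1.86 TPM per 1000 TPM of globin in replicates 2 and 3, below both other groups. Slc4a1 stood at 20.9, 27.6 and 21.5 TPM in medium and at 14.0, 13.6 and 10.3 TPM in TRAIL-treated libraries, with no overlap and a log2 difference of -0.89. With 3 libraries against 3 the exact permutation p of 0.1 is the smallest possible, so no pair of groups can pass 0.05. Adjusted over the 17 pairwise tests of these ratios it was 0.189.

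Epor per 1000 TPM of globin was 2.41, 3.97 and 2.92 TPM in medium, 14.3, 28.9 and 9.06 TPM in stimulated, and 5.03, 4.85 and 4.79 TPM in TRAIL-treated libraries. The 3 groups did not overlap, with stimulated cells highest (exact permutation p = 0.00357, adjusted p = 0.00893). For Klf1 the values were 6.07, 5.84 and 5.54 TPM in medium, 30.01, 34.01 and 35.1 TPM in stimulated, and 5.39, 4.60 and 2.81 TPM in TRAIL-treated libraries, with the same p values and no overlap. As listed, Epor and Klf1 stood higher relative to globin in stimulated cells than in either other group, and Alas2 stood lower. In stimulated libraries Epor was at only 0.238 to 0.716 TPM and Klf1 at 0.843 to 1.19 TPM. Alas2 was at or near the lowest listed value there, and depth is unknown. Since these ratios were chosen after the levels were seen, their p-values add nothing independent of the fold changes above. In TRAIL-treated cells Epor was above and Klf1 below the medium range.

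**Figure D3:**
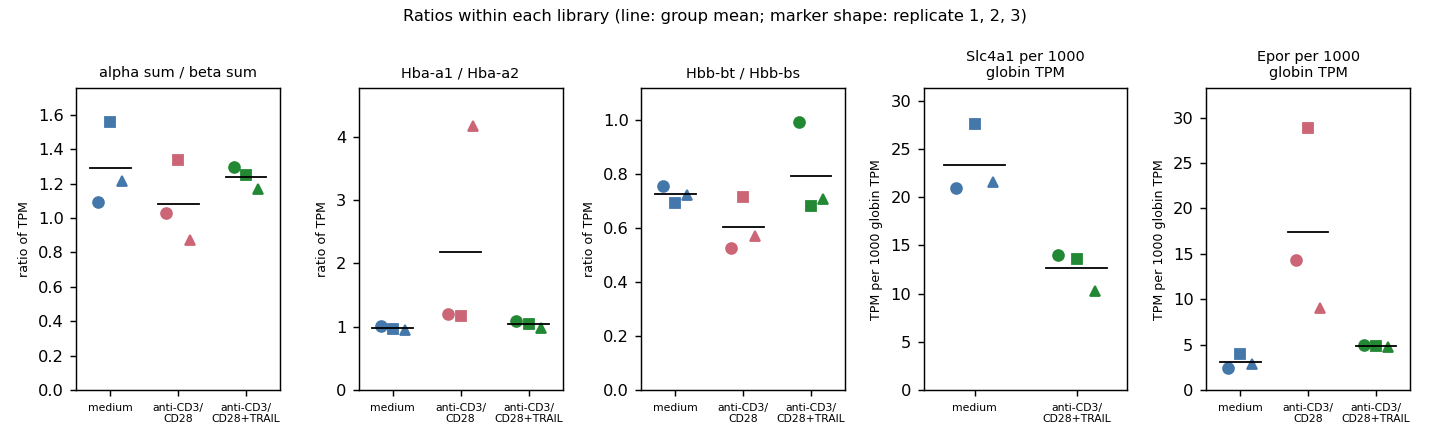
Ratios within each library by group, as ratios of TPM or as TPM per 1000 TPM of summed globin, with the group mean as a line and the marker shape giving the replicate number. The ratio of alpha to beta globin overlaps between the groups, while Epor relative to globin is separate in the 3 groups. Slc4a1 is shown without the stimulated group, where it is listed at 0.0001 TPM.

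Other genes of the red cell were read from lists of related functions. The other globin genes were not tested except for Hbq1b, which measured 1.79, 1.43 and 2.28 TPM in medium. Hbq1b was listed at 0.0001 TPM in all stimulated libraries and in 2 TRAIL-treated ones, and reached 0.303 TPM in TRAIL-treated replicate 3. It was called lower in both comparisons with medium. Of the 6 genes, 3 (Hbb-y, Hbb-bh1 and Hbb-bh2) were at 0.0001 TPM in all 9 libraries.

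Of 18 genes of the red cell membrane and its skeleton other than Slc4a1, 17 were tested and 14 fell with stimulation, beside 19.5% of genes tested. In TRAIL-treated against stimulated cells 8 rose, among them Ank1, Aqp1, Epb42, Ermap, Kel and Rhd, beside 16.6%, and this count was 13 and 1 at pseudocounts of 0.1 and 5 and 5 with quantile normalization. Against medium 14 fell in TRAIL-treated cells, beside 2.13%, and 5 did at a pseudocount of 5. Their median level was 3.26% of medium in stimulated cells and 21.02% in TRAIL-treated cells. Rhd, chosen after seeing its values, encodes a blood group antigen and measured 10.4, 10.3 and 10.98 TPM in medium, 0.0397, 0.122 and 0.0001 TPM in stimulated, and 2.47, 2.13 and 1.70 TPM in TRAIL-treated libraries. Its groups did not overlap, and its log2 fold change was -1.91 (limma adjusted p = 6.1e-06) for TRAIL-treated cells against medium. The abundant Epb41 and Gypc, whose products are also found in lymphocytes, were not called in any comparison, at log2 fold changes of -0.33 to 0.21 and -0.17 to -0.04.

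Of 10 erythroid transcription factor and cofactor genes, 5 fell with stimulation (Bcl11a, Gfi1b, Lmo2, Nfe2 and Tal1), beside 19.5% of genes tested, and 3 rose in TRAIL-treated against stimulated cells (Bcl11a, Lmo2 and Nfe2), beside 16.6%. In TRAIL-treated cells 5 were lower than medium (Gata1, Gfi1b, Lmo2, Nfe2 and Tal1), beside 2.13%. This last count was 0 at a pseudocount of 5, 1 with median-of-ratios scaling and 2 with quantile normalization. Their median level was 34.7% of medium in stimulated and 49.9% in TRAIL-treated cells. The 3 most abundant, Ldb1, Zbtb7a and Zfpm1, were not called in any comparison. Of those that rose, Bcl11a held 51.0%, Lmo2 48.8% and Nfe2 41.7% of the medium level in TRAIL-treated cells. Summed globin held 27.4% there, and the median B cell marker 44.95%. Which cells these transcripts came from was not tested. Gata1, the lineage factor that acts with KLF1 and is named here although it is outside the naming rule, measured 13.03, 12.8 and 12.5 TPM in medium, 7.69, 8.35 and 8.73 TPM in stimulated, and 6.83, 5.93 and 4.07 TPM in TRAIL-treated libraries. It had the lowest levels in TRAIL-treated cells, unlike the 8 genes above, and its log2 fold change there was -1.08 against medium (limma adjusted p = 8.2e-04) and -0.51 against stimulated cells (adjusted p = 0.014, under the fold threshold).

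Most cells use the remaining heme synthesis genes. Of 12 enzymes and carriers, 4 fell with stimulation (Abcb10, Fech, Ppox and Slc25a37), beside 19.5% of genes tested. None rose in TRAIL-treated against stimulated cells, beside 16.6% of genes tested, and 4 fell, among them Alad, Alas1 and Cpox, beside 14.3%. Against medium 4 fell in TRAIL-treated cells, among them Abcb10, Alad and Cpox, beside 2.13%, and the count was 0 at a pseudocount of 5 and 1 with either median-of-ratios scaling or quantile normalization. Cpox, which encodes coproporphyrinogen oxidase, measured 32.8, 36.3 and 33.4 TPM in medium, 54.7, 60.4 and 60.2 TPM in stimulated, and 15.6, 16.6 and 14.3 TPM in TRAIL-treated libraries. It fell by 1.85 on the log2 scale in TRAIL-treated against stimulated cells (limma adjusted p = 7.9e-08) and by 1.09 against medium (adjusted p = 3.9e-05). The abundant Tmem14c and Urod were not called in any comparison, at log2 fold changes of -0.66 to 0.52 and -0.56 to -0.11. The median of the 12 was 88.3% of medium in stimulated and 61.1% in TRAIL-treated cells.

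Of 15 genes of red cell enzymes, iron uptake and organelle clearance, 7 fell and 2 rose with stimulation, where 19.5% of genes tested were called lower and 12.4% higher. In TRAIL-treated against stimulated cells 4 rose (Blvrb, Car1, Car2 and Steap3) and 2 fell, where 16.6% were called higher and 14.3% lower, so the 2 opposite calls in each comparison are near the share over all genes. The 2 in the opposite direction to the globins were Tfrc and Slc6a9 in both comparisons. Tfrc, the transferrin receptor by which dividing cells also take up iron, measured 57.0, 41.2 and 46.9 TPM in medium, 209, 231 and 218 TPM in stimulated, and 78.0, 90.2 and 103 TPM in TRAIL-treated libraries. Its log2 fold changes were 2.17 (limma adjusted p = 2.7e-07) with stimulation and -1.28 (adjusted p = 1.5e-05) for TRAIL-treated against stimulated cells. Slc6a9, a glycine transporter whose substrate enters heme synthesis, measured 2.46, 3.08 and 2.67 TPM in medium, 42.3, 51.1 and 51.4 TPM in stimulated, and 0.518, 0.348 and 0.457 TPM in TRAIL-treated libraries. It rose by 3.72 on the log2 scale with stimulation (limma adjusted p = 3.6e-09), fell by 5.09 in TRAIL-treated against stimulated cells (adjusted p = 7.8e-10), and fell by 1.37 against medium (adjusted p = 5.1e-05). Against medium, Car2 and Slc6a9 were the 2 of 15 genes called lower in TRAIL-treated cells, beside 2.13% of genes tested. Bnip3l and Prdx2, also among the most abundant, were not called.

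Partners of the EPO receptor also act below cytokine receptors of T cells. Of 9 tested, 5 rose with stimulation, where 12.4% of genes tested were called higher (Cish, Jak2, Pim1, Socs3 and Stat5a) and Lyn fell. In TRAIL-treated against stimulated cells 4 fell (Cish, Jak2, Socs3 and Stat5a), where 14.3% of genes tested were called lower, and Lyn rose. Pim1, a kinase gene induced by cytokine signals, measured 124, 148 and 130.1 TPM in medium, 695, 738 and 699 TPM in stimulated, and 447, 499 and 458 TPM in TRAIL-treated libraries, and it was the one partner called higher than medium in TRAIL-treated cells, as were 2.49% of genes tested (log2 fold change 1.80, limma adjusted p = 1.2e-06). Cish, a feedback inhibitor of these receptors, had log2 fold changes of 4.22 (limma adjusted p = 2.3e-09) with stimulation and -3.64 (adjusted p = 7.3e-09) for TRAIL-treated against stimulated cells. For Socs3 they were 2.04 (limma adjusted p = 8.2e-08) and -1.68 (adjusted p = 3.9e-07). Grb2 was not called in any comparison.

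Markers of several other cells of a spleen were also lower in stimulated cells, and their part in these results was not tested. Those of B cells, neutrophils and monocytes, and red pulp macrophages were higher again with TRAIL. No platelet marker was called in TRAIL-treated against stimulated cells, though 4 of the 7 tested were higher without overlap of libraries. The sum of NK and CD8 T cell markers was lower still, with lower Cd8a and Cd8b1, while Ncr1 and Klrb1c were called higher. Over all genes tested, 19.5% were called lower and 12.4% higher with stimulation, 16.6% higher and 14.3% lower in TRAIL-treated against stimulated cells, and 2.13% lower against medium, which is the background of each count of markers. Of 10 B cell markers, led by Cd79a, Cd79b and Ms4a1, 10 fell with stimulation, 9 rose in TRAIL-treated against stimulated cells and 7 fell against medium. Their summed level was 2404 to 2514 TPM in medium, 198 to 219 TPM with stimulation and 997 to 1132 TPM with TRAIL. Of 12 neutrophil and monocyte markers, led by Lyz2, S100a9 and Ngp, the numbers were 12, 11 and 2, with summed levels of 1526 to 1923, 54.2 to 71.9 and 979 to 1131 TPM, and Retnlg was listed at 0.0001 TPM in all stimulated libraries. Of 14 markers of red pulp macrophages, which clear old red cells, led by Hmox1, C1qa and Vcam1, 14 fell, 14 rose and none was called against medium, with summed levels of 1806 to 2147, 73.6 to 78.2 and 1747 to 2005 TPM.

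Relative to medium, the median marker in TRAIL-treated cells stood at 104% for red pulp macrophages, 54.5% for neutrophils and monocytes, 44.95% for B cells, 34.6% for NK and CD8 T cells and 16.8% for platelets, beside 14.95 to 43.9% for the 8 erythroid and globin genes. The 6 NK and CD8 T cell markers, led by Cd8b1, Cd8a and Klrk1, summed to 226 to 255 TPM in medium, 122 to 133 TPM with stimulation and 85.9 to 94.3 TPM with TRAIL. Of these, 3 were called lower with stimulation, 2 higher and 1 (Cd8a) lower in TRAIL-treated against stimulated cells, and 5 lower against medium. Of 12 platelet markers 7 were tested, led by Itgb3, Itga2b and Pf4, and 6 fell with stimulation. In TRAIL-treated against stimulated cells none was called, on a scale that understates the change of low genes. Of the 7, 4 were higher there without overlap of libraries and none lower, beside 35.5% of genes tested that were higher. Against medium 4 fell. Summed levels were 88.8 to 114 TPM in medium, 26.4 to 44.5 TPM with stimulation and 43.2 to 61.0 TPM with TRAIL. Gp6 was at 0.0001 TPM in all stimulated libraries. The 10 T cell markers held a median of 91.1% of medium in stimulated and 106% in TRAIL-treated cells. Among them Trbc2 and Trac were the most abundant, Cd2 was called higher and Cd3g lower with stimulation, and none was called in the other comparisons.

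**Figure D4:**
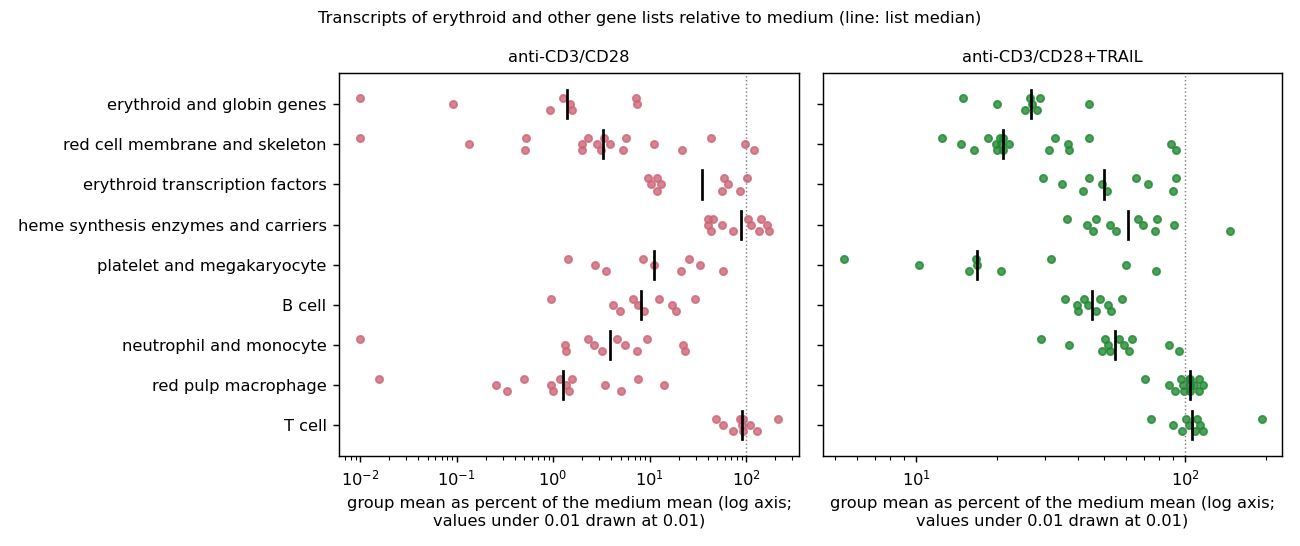
Group mean of each gene as a percentage of its medium mean, on log axes, for the 8 erythroid and globin genes and other lists, with the list median as a line. In stimulated cells most lists lie far below the dotted line at the medium level, except T cell and heme synthesis genes. In TRAIL-treated cells the erythroid median lies below those of B cell (44.95%), neutrophil and monocyte (54.5%) and red pulp macrophage (104%) genes.

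The genes most like the summed beta globins over the 9 libraries, by Pearson's r of log2(TPM + 1), were Art4, Gpx1, Prcp, Ctsh and Ms4a1, each with r = 0.998. Art4, which encodes a red cell blood group antigen, had group means of 5.32 TPM in medium, 0.542 in stimulated and 2.96 in TRAIL-treated cells. Gpx1, a glutathione peroxidase gene, had means of 542, 86.1 and 333 TPM, and Ms4a1 encodes CD20 of B cells. The 9 points share the levels of their 3 groups, and no p is given. After each group's mean was subtracted, the highest r were those of Gm8430 (0.999), Rps27a-ps2 (0.997), Gm14303 (0.987), Gm15772 (0.982) and Znrd1 (0.979). Gm8430 had group means of 67.0 TPM in medium, 97.7 TPM with stimulation and 81.1 TPM with TRAIL, so its order of groups was not that of beta globin.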

How the data were processed

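RNA-seq was measured in 9 libraries of splenic CD4+ T cells, whose labels gave the groups and the replicate numbers. The authors used Trimmomatic 0.36 on 150-base paired-end reads, and HISAT2 2.1.0 placed them on GRCm38. The submitters' processing notes also list SAMtools 1.2, StringTie 2.1.2 and DESeq2, and they name GRCh38, a human build, as the genome. The table's loci of 7 of the 8 erythroid genes are those of mouse GRCm38 in GENCODE M21, and the locus of Klf1 differs from it. Per gene, the deposited table holds TPM values, for 55487 genes, so read counts, depth and the counting of shared or antisense reads are unknown, and each value is a share of the library's total, which the rest of the transcripts also set. DESeq2, with which the authors normalized feature counts, was not run because TPM values are not counts.

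Everything below was computed from the TPM. A linear model was fitted in R 4.3.3 with limma 3.58.1, using eBayes with its trend option, to log2(TPM + 1) in all libraries without a replicate block. It covered the 15536 genes that reached 1 TPM in 3 or more libraries. A gene was called where the p-value, adjusted by Benjamini-Hochberg over these genes, was under 0.05 and the log2 fold change was 1 or more in size. The globin pairs were summed in a refit of 15534 rows. Ratios were compared with exact permutation tests. The code was tested on simulated data. Replicate numbers were checked for pairing, and none was seen, though the check cannot exclude it.

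Each of the 8 erythroid genes found is named. Of the other lists, the 3 tested genes with the highest mean TPM and those called opposite to Hbb-bs were to be named, and genes called in short lists are given by name after their values were seen. The genes and lists were chosen with earlier results of these data known. The alternatives varied pseudocount, filter, scaling, variance trend, libraries, block, paralog sums and thresholds. Their use on the other lists was added after seeing the data. The values of 1 of the 9 genes, and of some genes of the other lists, are not reported here.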

Additional observations from a re-analysis of the deposited data

How the results depend on the processing

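The alternatives changed no direction among the 8 erythroid genes, and 451 of their values kept their call while 5 did not. Klf1 in TRAIL-treated against stimulated cells was called at a pseudocount of 0.1 (1.33) and without TRAIL-treated replicate 3 (1.06), Epor in TRAIL-treated cells against medium was called at a pseudocount of 0.1 (-1.15) and without medium replicate 1 (-1.06), and Epor in TRAIL-treated against stimulated cells was not called at a pseudocount of 5 (0.55). The size of folds of low genes moved with the pseudocount: over the alternatives, stimulated against medium ranged from -3.63 to -1.12 for Epor and from -3.65 to -1.62 for Klf1. All 114 values of the summed globins kept their call. The number of erythroid genes called ranged from 6 to 8 for stimulated against medium and from 5 to 8 in each of the other comparisons, with the lowest where each globin pair was summed, which leaves 6 rows in place of 8. The log2 ratio of alpha to beta globin, -0.046 for TRAIL-treated minus medium, turned to 0.050 for Hba-a1 over Hbb-bs alone and to 0.0998 without medium replicate 2, and leaving out single libraries gave -0.156 to 0.0998. The cause was not tested.

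Of the counts of other lists, 1317 stayed within 1.5 times and 51 did not. Red cell membrane genes higher in TRAIL-treated against stimulated cells went from 8 to 13 at a pseudocount of 0.1, 1 at 5, and 5 with quantile normalization. Transcription factor genes lower than medium in TRAIL-treated cells went from 5 to 0 at a pseudocount of 5, 1 with median-of-ratios scaling and 2 with quantile normalization, and heme synthesis genes from 4 to 0, 1 and 1. For TRAIL-treated cells against medium, these scalings shifted the median of all genes by 0.17 and 0.14 (log2).

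With the replicate block, 8, 7 and 7 erythroid genes were called, as without it, and over all genes 4960, 4802 and 714 in place of 4959, 4800 and 718. No pairing by number was seen (correlations -0.31 to 0.29, 3 of 9 over 0.1, and 7 of 18 best with their own number). With 3 libraries a group, the check cannot exclude pairing. The unknown depth and the value of 0.0001 TPM limit what can be said of Slc4a1 and Alas2 in stimulated cells. The low levels of Epor and Klf1 there limit their ratios to globin.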
